A study of Mus musculus with 6 samples.

Results

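The cytosolic ribosomal protein genes were compared between mice labelled as overexpressing NEGR1 and control mice, in ventral hippocampus. Members were the protein-coding genes whose symbol begins with Rpl or Rps and a number, together with Rplp0, Rplp1, Rplp2 and Rpsa. The Rps6k kinases, Rps19bp1, Rpl7l1 and pseudogenes were left out. This gave 84 of the 56941 genes in the count table, 51 of the large (60S) and 33 of the small (40S) subunit.

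Poly(A) RNA was sequenced from ventral hippocampus of 6 mice, 3 with the genotype NEGR1_overexpression and 3 labelled NEGR1_control. NEGR1 is a cell adhesion molecule on the surface of neurons, and the study related its excess to working memory and to behaviour modelling anxiety and depression. The labels used here do not say how NEGR1 was overexpressed, what the control mice had received, or the strain and age. Library totals were 30726110 to 38108394 counts.

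Negr1 itself checks the labels. It was at 185, 199 and 195 CPM in the libraries labelled overexpression and at 181, 168 and 180 CPM in control, CPM being each gene's counts relative to the library total, scaled by TMM factors. The groups did not overlap, but the log2 fold change was 0.13, with an edgeR adjusted p of 0.488. A rise of Negr1 mRNA did not pass the threshold, so "overexpression" below is the label of these libraries.

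The cytosolic ribosome translates nuclear-encoded mRNA: its small subunit reads the message and its large subunit joins amino acids. Its proteins are made in matched amounts, and their mRNAs are among the most abundant and evenly expressed in most tissues. Many of these mRNAs begin with a C and a run of pyrimidines, the terminal oligopyrimidine (TOP) tract, through which mTOR signalling and LARP1 set their translation.

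The sequences below cover the 15 bases before and the 15 bases from the annotated start of transcription, on the coding strand. They are shown because they carry 2 promoter features that are more frequent among the members than among other genes, in genes whose values follow. RefSeq lists 3 starts for Rps19 and 2 for Rps21; the printed one is the one with the feature, and the windows at the other starts lack it. All come from RefSeq's GRCm38.p6 table. Capitals mark the pyrimidine tract that opens the transcript of Rps18 (chr17:33955651-33955680, minus strand), Rps21 (chr2:180257364-180257393, plus strand) and Rps6 (chr4:86857353-86857382, minus strand). In Rps19 (chr7:24884577-24884606, plus strand) and Rps28 (chr17:33824548-33824577, minus strand) capitals mark overlapping copies of the motif TCGCGAGA on the 2 strands.
Rps18: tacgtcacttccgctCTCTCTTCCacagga
Rps21: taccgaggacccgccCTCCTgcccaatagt
Rps6: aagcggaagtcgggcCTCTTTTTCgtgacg
Rps19: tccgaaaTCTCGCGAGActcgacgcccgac
Rps28: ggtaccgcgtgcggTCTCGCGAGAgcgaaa

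In total the ribosomal protein mRNA of the 2 groups differed by less than the spread between libraries. Large subunit genes summed to 4180, 4354 and 4294 CPM in overexpression replicates 1 to 3, and to 4229, 4316 and 4323 CPM in control replicates 1 to 3. Small subunit genes summed to 2880, 2926 and 2881 CPM in overexpression and to 2827, 2846 and 2898 CPM in control. The groups overlapped in both sums, and the members took between 0.707 and 0.737% of the counts of a library.

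The ratio of large to small subunit mRNA was 1.451, 1.488 and 1.491 in the overexpression libraries and 1.496, 1.517 and 1.492 in the control libraries. Each overexpression value was below each control value, by as little as 1.491 against 1.492. The means were 1.477 ± 0.0218 (SD, n = 3) and 1.502 ± 0.0132 (SD, n = 3), a mean log2 difference of −0.024. Without overexpression replicate 1 the difference was −0.012. With each gene weighted equally, as the mean of log2 CPM over a subunit, it was −0.055. No p is given for these sums, since the members were chosen with earlier results known.

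**Figure D1:**
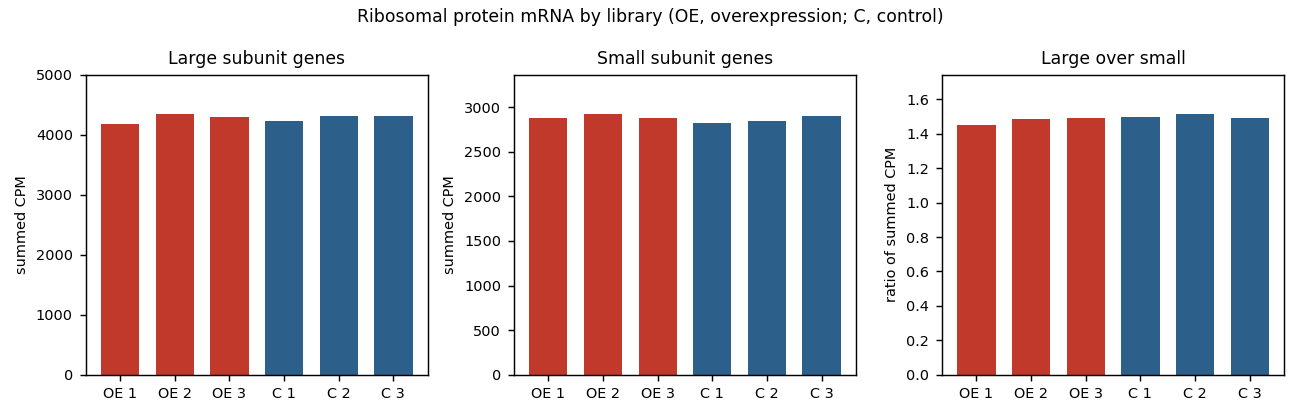
Bars give summed CPM of the large subunit genes (left), the small subunit genes (middle) and their ratio (right) in each library, on axes that start at 0; OE, overexpression (red), C, control (blue). The sums overlap between groups, and the ratio lies between 1.451 and 1.517 in all 6 libraries.

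Gene by gene, no member passed the test. Of the 84 members, 82 had enough counts to be tested (49 large, 33 small), and edgeR's quasi-likelihood test with Benjamini-Hochberg adjustment over 19354 genes placed 0 of them under an adjusted p of 0.05. The background was 9 genes, 0.0465% of those tested, with 5 higher (0.0258%) and 4 lower (0.0207%). The smallest adjusted p of a member was 0.139, for Rps19. DESeq2 called 2 members, Rps19 and Rpl22l1, among 107 genes (0.553%).

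At an unadjusted p under 0.05 edgeR gave 17 members (20.7%) against 9.24% of all genes tested, and 11.5% of genes of at least 10 CPM. They leaned upward: 14 were higher (background 4.64%) and 3 lower (background 4.6%). DESeq2 also gave 17 members, against a background of 7.31%. By subunit edgeR's count was 6 of 49 large (12.2%, 4 higher, 2 lower) and 11 of 33 small (33.3%, 10 higher, 1 lower). The large subunit share was thus near the 11.5% of genes of at least 10 CPM. The difference between the subunits was not tested.

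The 3 libraries of a group lay wholly on one side of the other 3 for 31 members (37.8%), against 15.1% of all genes and 17.9% of genes of at least 10 CPM. Of these, 18 were higher in overexpression (background 7.07%) and 13 lower (background 8.07%). The large subunit had 9 of each and the small subunit 9 higher and 4 lower. A gene could stand apart with a small change, as Rps6 did at 0.930-fold. Over all 82 tested members, apart or not, 60 differed by less than 1.1-fold.

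The median log2 fold change was 0.017 over the large and 0.037 over the small subunit genes, beside 0.0015 over all genes tested. Correction for GC content and transcript length turned the large subunit median to −0.010 and left the small one at 0.024. In all, 48 members were above 1-fold and 34 below.

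**Figure D2:**
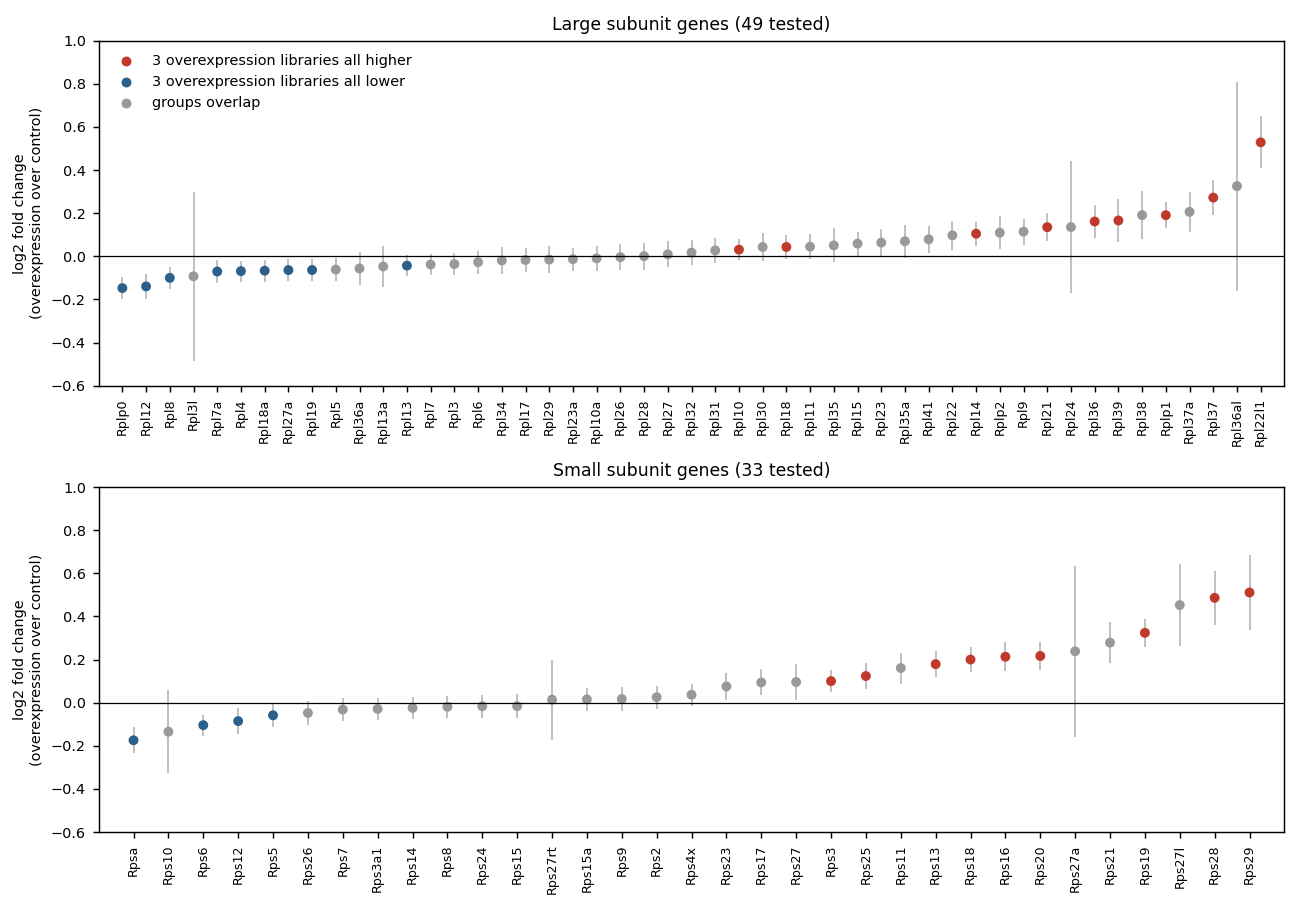
Points give each tested gene's log2 fold change, overexpression over control, with its standard error, in order of size, for 49 large (top) and 33 small (bottom) subunit genes; red and blue mark genes whose 3 overexpression libraries all lay above or all below the control libraries. Values run from −0.17 (Rpsa) to 0.53 (Rpl22l1), and the upper end is longer than the lower.

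Of the small subunit genes, Rps19 had the smallest p. Its product is needed to mature 18S rRNA, and it is the gene most often mutated in Diamond-Blackfan anemia, an inherited failure of red cell production. Rps19 (ENSMUSG00000040952) stood at 52.2, 58.2 and 56.7 CPM in overexpression replicates 1 to 3 and at 41.6, 45.2 and 46.8 CPM in control replicates 1 to 3. Every overexpression library was thus above every control library. The log2 fold change was 0.32 ± 0.065 (SE), 1.252-fold, with an edgeR adjusted p of 0.139 (2.17e-04 before adjustment).

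Whether Rps19 was called depended on the setting. Its adjusted p was 0.0138 with DESeq2, 5.42e-04 in edgeR with no filter on low counts and 0.0367 without overexpression replicate 1. It was 0.0736 with the replicate number as a block. With block and correction for GC content and length it was 0.0616 when the shortest transcript gave the length, and 0.0364, 0.0385 and 0.0489 under the 3 other transcript rules tried. Its log2 fold change lay between 0.28 and 0.37 in every setting run.

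Rps28 and Rps29 encode 2 of the smallest ribosomal proteins; Rps28 sits near the mRNA exit. Rps28 was at 10.7, 11.6 and 13.4 CPM in overexpression and at 7.19, 9.47 and 8.85 CPM in control. Rps29 was at 12.5, 13.9 and 15.7 CPM in overexpression and at 7.10, 12.05 and 10.4 CPM in control. For both, the groups did not overlap, and control replicate 1 was the lowest library.

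The log2 fold change of Rps28 was 0.49 ± 0.12 (SE), edgeR adjusted p 0.251. That of Rps29 was 0.51 ± 0.17 (SE), edgeR adjusted p 0.430. Without control replicate 1 the log2 fold changes were 0.38 for Rps28 and 0.33 for Rps29.

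Rps18 and Rps20, both of the head of the small subunit, also stood higher in each overexpression library. Rps18 was at 61.9, 66.0 and 66.0 against 55.0, 55.6 and 58.2 CPM, with a log2 fold change of 0.20 ± 0.057 (SE) and an edgeR adjusted p of 0.340. Rps20 was at 45.6, 49.5 and 49.5 against 38.5, 43.7 and 42.3 CPM, with a log2 fold change of 0.22 ± 0.066 (SE) and an edgeR adjusted p of 0.369. These differences are below 1.2-fold, and both genes missed the threshold.

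Rpsa and Rps6 were the tested small subunit genes of at least 10 CPM with the lowest ratios. Rpsa encodes a protein at the mRNA exit that is also known as the laminin receptor. It was at 273, 262 and 237 CPM in overexpression and at 297, 278 and 296 CPM in control, each overexpression library lying below each control library. The log2 fold change was −0.17 ± 0.059 (SE), with an edgeR adjusted p of 0.418.

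Rps6 encodes the substrate of S6 kinase whose phosphorylation is a common readout of mTOR activity. It was at 157, 159 and 157 CPM in overexpression and at 170, 170 and 168 CPM in control. No member of at least 10 CPM varied less within groups, with a pooled SD of 0.0077 log2 units. Its log2 fold change was −0.10 ± 0.049 (SE), 0.930-fold, with an edgeR adjusted p of 0.542.

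**Figure D3:**
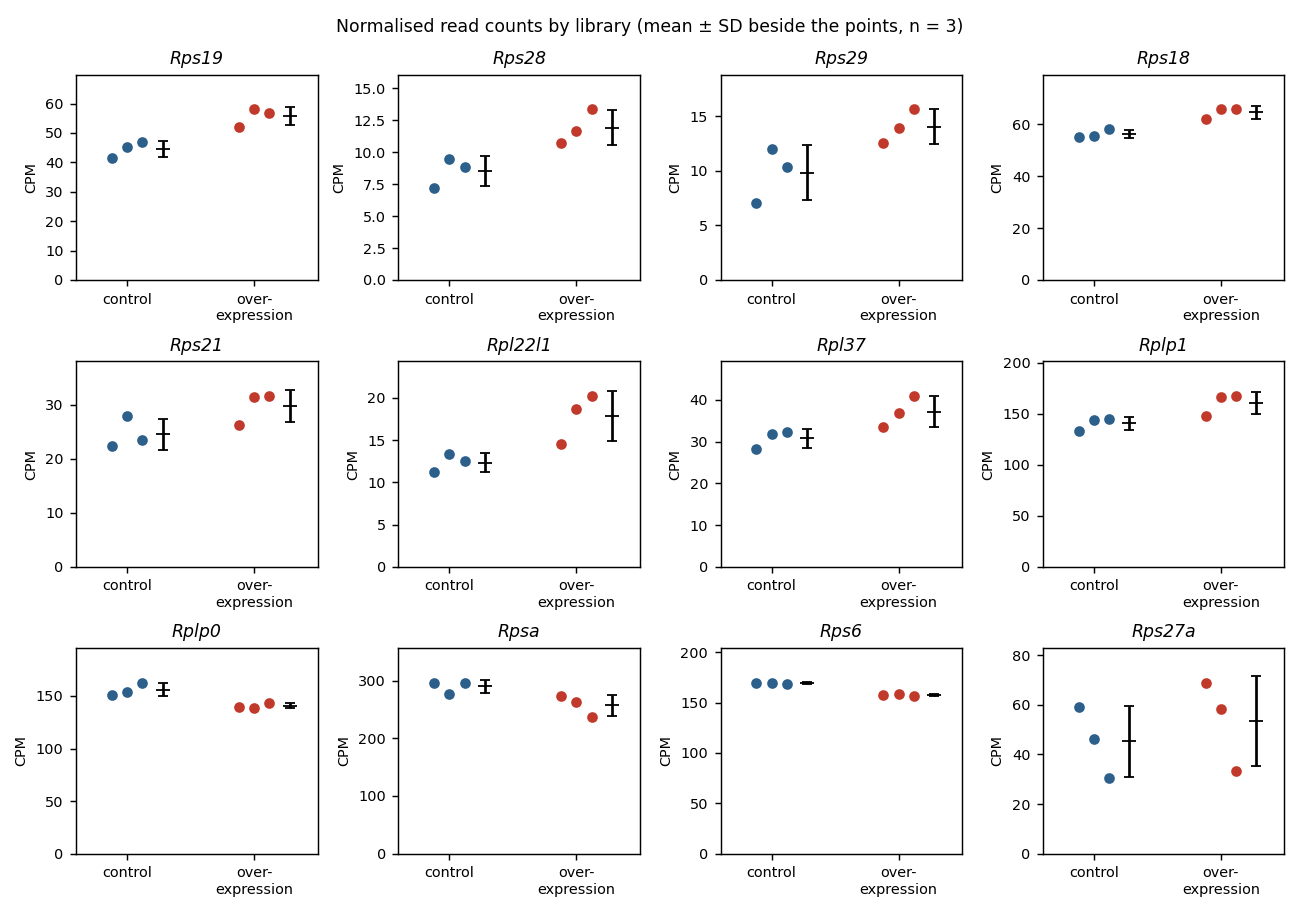
Points give CPM of 12 genes in each library, control (blue) and overexpression (red), each in replicate order, with mean ± SD (n = 3) beside them, on axes that start at 0. Rps19 lies at 41.6 to 46.8 in control and 52.2 to 58.2 in overexpression, Rps6 differs little within a group, and Rps27a spreads from 30.6 to 69.0 across both groups.

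In the large subunit, Rpl22l1 had the largest log2 fold change and the smallest p. It is a paralog of Rpl22, an RNA-binding protein of the subunit. Rpl22l1 (ENSMUSG00000039221) was at 14.5, 18.7 and 20.3 CPM in overexpression and at 11.2, 13.4 and 12.5 CPM in control. The groups did not overlap, and replicate 1 was lowest in each.

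The log2 fold change of Rpl22l1 was 0.53 ± 0.12 (SE), 1.44-fold, with an edgeR adjusted p of 0.210. It was called by DESeq2 (adjusted p 0.0156), by edgeR with no filter on low counts (3.3e-05) and by edgeR without overexpression replicate 1 (0.0179). Correction for GC content and length lowered the log2 fold change to 0.42. Rpl22 itself had a log2 fold change of 0.097 ± 0.067 (SE), and its groups overlapped.

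Rpl37, a zinc-binding protein of the large subunit, was at 33.5, 36.9 and 41.0 CPM in overexpression and at 28.2, 31.8 and 32.3 CPM in control. Its log2 fold change was 0.27 ± 0.081 (SE), with an edgeR adjusted p of 0.353. Rpl12, at the base of the stalk, lay in the other direction, at 99.4, 107 and 96.8 against 108, 107 and 118 CPM. Its highest overexpression and lowest control libraries nearly met (106.7 and 107.4 CPM), and the log2 fold change was −0.14 ± 0.060 (SE), edgeR adjusted p 0.497.

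The P stalk, the flexible arm of the large subunit that recruits elongation factors, is built on Rplp0, which carries Rplp1 and Rplp2 in pairs. Its 3 genes did not share a direction. Rplp0 was at 140, 139 and 144 CPM in overexpression and at 151, 154 and 163 CPM in control. Rplp1 was at 148, 166 and 168 against 134, 144 and 145 CPM. Thus every overexpression library was lower for Rplp0 and higher for Rplp1.

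The log2 fold changes were −0.15 ± 0.053 (SE) for Rplp0, edgeR adjusted p 0.423, and 0.19 ± 0.061 (SE) for Rplp1, edgeR adjusted p 0.401. Rplp2 was at 41.2, 50.5 and 47.6 against 41.4, 45.7 and 41.9 CPM, and its groups overlapped. In all settings run, leaving out each library included, Rplp0 stayed below and Rplp1 and Rplp2 above 1-fold. None of the 3 passed the threshold.

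In other working parts of the ribosome, 0 genes passed the adjusted threshold. Of 9 genes lining or ringing the peptide exit tunnel, 4 were above and 5 below 1-fold, 0 passed an unadjusted p of 0.05, and the median was −0.0037. Of the 6 tested genes at the mRNA entry and exit, 3 were above and 3 below 1-fold, with Rps28 and Rpsa at either end. At an unadjusted edgeR p under 0.05, 1 was higher and 1 lower, beside 9.24% of all genes and 20.7% of tested members. The groups lay wholly apart for 2 higher and 1 lower, beside 15.1% of all genes and 37.8% of tested members. Rpl5 and Rpl11, which carry 5S rRNA and hold back Mdm2 when free, had log2 fold changes of −0.061 ± 0.052 (SE) and 0.045 ± 0.058 (SE).

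Of 20 members mutated in Diamond-Blackfan anemia, 14 were above and 6 below 1-fold, with a median of 0.044. At an unadjusted p under 0.05, 4 of them were higher and 0 lower: Rps19, Rps20, Rps28 and Rps29. In either direction the share at that p was 20.7% of the 82 tested members and 9.24% of all genes tested. Of all genes tested 4.64% were higher and 4.6% lower. These 4 genes all encode small subunit proteins and have been described above. The groups lay wholly apart for 5 higher and 0 lower of the 20, beside 37.8% of tested members and 15.1% of all genes in either direction. The adjusted count was 0. The difference of the list from the other members was not tested.

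Several members serve as qPCR reference genes, and 4 of 6 on that list had groups that did not overlap, beside 37.8% of the tested members and 15.1% of all genes. Rps18 and Rps29 were higher, Rplp0 and Rpl4 lower. Rpl4, which reaches into the exit tunnel, was at 360, 372 and 349 against 377, 375 and 380 CPM, with a log2 fold change of −0.068 ± 0.048 (SE). Set against each other, Rps18 and Rplp0 thus differed in opposite directions, by 0.20 and −0.15 on the log2 scale.

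The 2 other reference genes lay close to 1-fold. Rpl32 was at 65.4, 67.7 and 70.6 against 65.6, 66.6 and 69.2 CPM, with a log2 fold change of 0.017 ± 0.057 (SE), and correction for GC content and length turned its sign. Rpl13a was at 12.2, 14.6 and 14.1 against 13.4, 13.7 and 15.1 CPM, with a log2 fold change of −0.047 ± 0.097 (SE). The groups overlapped for both.

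Rps27a had the widest spread within groups, and it is named here after its values were seen. It encodes a small subunit protein made as a fusion to ubiquitin. Its level was 69.0, 58.2 and 33.3 CPM in overexpression replicates 1 to 3 and 59.1, 46.1 and 30.6 CPM in control replicates 1 to 3. The pooled SD within groups was 0.510 log2 units, where the median member of at least 10 CPM had 0.059.

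The log2 fold change of Rps27a was 0.24 ± 0.40 (SE), with an edgeR adjusted p of 0.904, and by leaving out single libraries it ranged from 0.012 to 0.49. Without Rps27a the log2 difference in the large to small ratio was −0.020. Fau, whose ribosomal protein is made as a fusion to a ubiquitin-like protein and whose symbol the rule does not take, was at 72.0 ± 4.65 (SD, n = 3) against 68.2 ± 0.686 CPM (SD, n = 3).

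Levels between genes are compared per kilobase of the shortest transcript tagged basic, a rule settled on after results had been seen. The order under other transcript rules is not given. Over the tested members the level ran from 0.376 to 340 CPM per kilobase, with a median of 107. The highest was Rps24, at 340 CPM per kilobase, whose product helps process the precursor of 18S rRNA. Its CPM was 158, 158 and 159 in overexpression and 161, 152 and 167 in control. In the large subunit Rplp1 was highest, at 302 CPM per kilobase.

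Of the paralogs of core proteins, Rpl22l1 has been given above. Rpl3l, known from heart and skeletal muscle, was at 0.375 ± 0.0662 (SD, n = 3) against 0.402 ± 0.0841 CPM (SD, n = 3). Rpl10l, known from testis, had 0 counts in all 6 libraries, where 3 counts would be 0.0787 to 0.0976 CPM. Rpl39l had 1 count in overexpression and 3 in control.

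Rps27l, a p53-responsive paralog of Rps27, was at 2.86, 3.95 and 4.27 against 2.34, 2.85 and 2.92 CPM. Its log2 fold change was 0.45 ± 0.19 (SE), with an edgeR adjusted p of 0.489. Overexpression replicate 1 lay within the control range, so the groups overlapped. Rps27rt, a retrogene copy of Rps27, was at 3.17 ± 0.366 (SD, n = 3) against 3.13 ± 0.620 CPM (SD, n = 3).

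For 4 members, exons of another gene on the same strand cover at least 20% of the exon bases in the GENCODE M21 annotation, so reads of the shared exons may not have been counted. Rpl24 (47.0% covered) was at 0.693 ± 0.0964 (SD, n = 3) against 0.633 ± 0.0768 CPM (SD, n = 3). Rpl36al (24.5%) was at 0.439 ± 0.259 (SD, n = 3) against 0.354 ± 0.103 CPM (SD, n = 3).

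Rps10 (20.6%), the lowest small subunit gene per kilobase at 6.22, was at 2.18, 3.51 and 3.16 against 3.39, 3.06 and 3.28 CPM. Rpl13a (35.4%), given above, is the other. The genes that overlap Rpl24 (Gm28037), Rps10 (RPS10-NUDT3) and Rpl13a (Gm45713) had 0 counts. These levels are thus not a measure of how much of the protein's mRNA is present.

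Near-identical pseudogenes could share reads with the members. The table holds 300 named copies with the ending -ps, of which 41 were tested. They summed to 205 to 222 CPM in a library, beside 7056 to 7280 CPM for the members. For single genes the weight of the copies differed widely. Copies of Rps10 summed to 24.1 against 24.4 CPM (means of overexpression and control), beside 2.95 and 3.24 for Rps10. Copies of Rpl21 summed to 33.8 against 35.0 CPM, beside 41.1 and 37.4 for Rpl21. Those of Rps24 were at 0.039 against 0.126 CPM. How many reads were shared was not tested. Of the 41 tested copies 0 passed the adjusted threshold, and 4 were higher and 0 lower at an unadjusted edgeR p under 0.05. Of all genes tested 4.64% were higher and 4.6% lower at that p, 9.24% in either direction. Whether the copies differ from other genes was not tested.

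The members were also ordered by the length and the level of their mRNA. Length was that of the shortest transcript tagged basic in GENCODE M21, a rule settled on after results had been seen. It followed 3 other rules that were fitted and 1, the median over transcripts, set aside before a fit, and was kept because its lengths for short genes were the most plausible. It still gave 3706 bases for Rps20, and the class limits were set after the data were seen. Among the 76 members of at least 10 CPM, 17 of 23 under 500 bases were above 1-fold, with a median log2 fold change of 0.096. From 500 to 1000 bases it was 23 of 40, with a median of 0.016, and from 1000 bases 4 of 13, with a median of −0.038.

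For other coding genes of at least 10 CPM the medians were 0.022 under 500 bases (141 of 234 above 1-fold), −2.0e-04 from 500 to 1000 bases and −0.016 from 1000 bases. The difference between members and other genes was not tested. Correction for GC content and length lowered the median of the short members to 0.058, with 16 of 23 above 1-fold, and that of the other short genes to −0.0084.

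Across the 76 members, Spearman's rho of the log2 fold change was −0.38 with length, −0.60 with mean CPM and −0.094 with GC content. Over 9866 other coding genes the same values were −0.012, −0.049 and −0.39. These genes share libraries and are not independent replicates, so no p is given. With the 3 other transcript rules, the members' rho with length was between −0.40 and −0.35. That of the other coding genes turned positive, at 0.074 (APPRIS), 0.080 (RefSeq-linked) and 0.029 (best supported).

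Under the APPRIS and the RefSeq-linked rule alike, 10 of 11 short members were above 1-fold, with a median log2 fold change of 0.162. The long class held 12 of 24 above 1-fold, with a median of −0.0078, so the step at the long end depended on the transcript rule. Under the best supported rule it was 10 of 13 short members, with a median of 0.097, and 7 of 18 long ones, with a median of −0.037.

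The short members were lowest in control replicate 1, at −0.13 log2 units from the mean of the 6 libraries, averaged over the class. They were highest in overexpression replicate 3, at 0.10, and overexpression replicate 1 was at −0.014, below control replicate 2 at −0.0020. The groups therefore overlapped in this average. Without control replicate 1 the median log2 fold change of the short members was 0.067, and without overexpression replicate 1 it was 0.128.

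**Figure D4:**
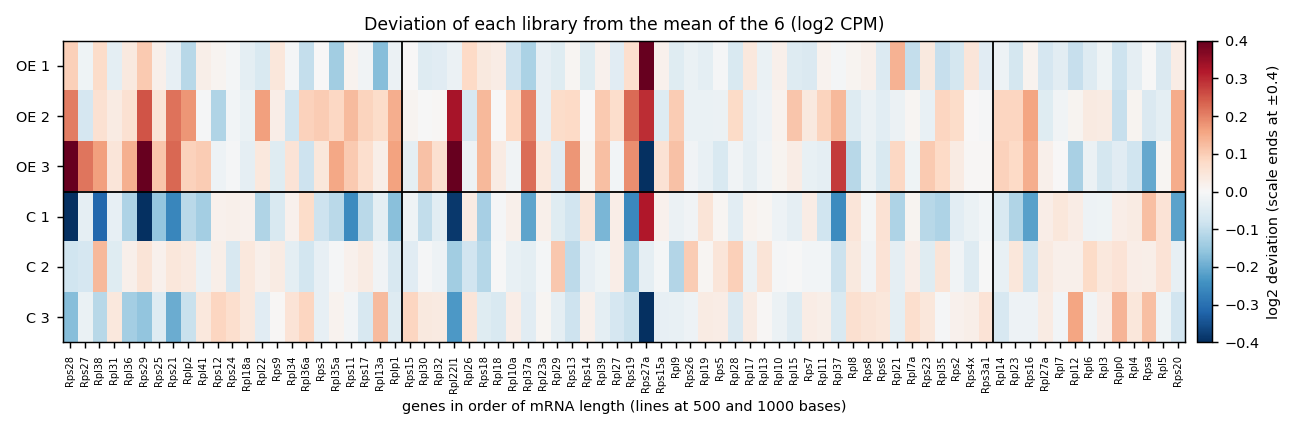
Colour gives the log2 deviation of each library (rows; OE, overexpression, C, control) from the mean of the 6 for the 76 genes of at least 10 CPM, in order of transcript length with lines at 500 and 1000 bases; the scale ends at ±0.4. The short genes at the left are lowest in control replicate 1, and Rps27a crosses from high to low within each group.

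**Figure D5:**
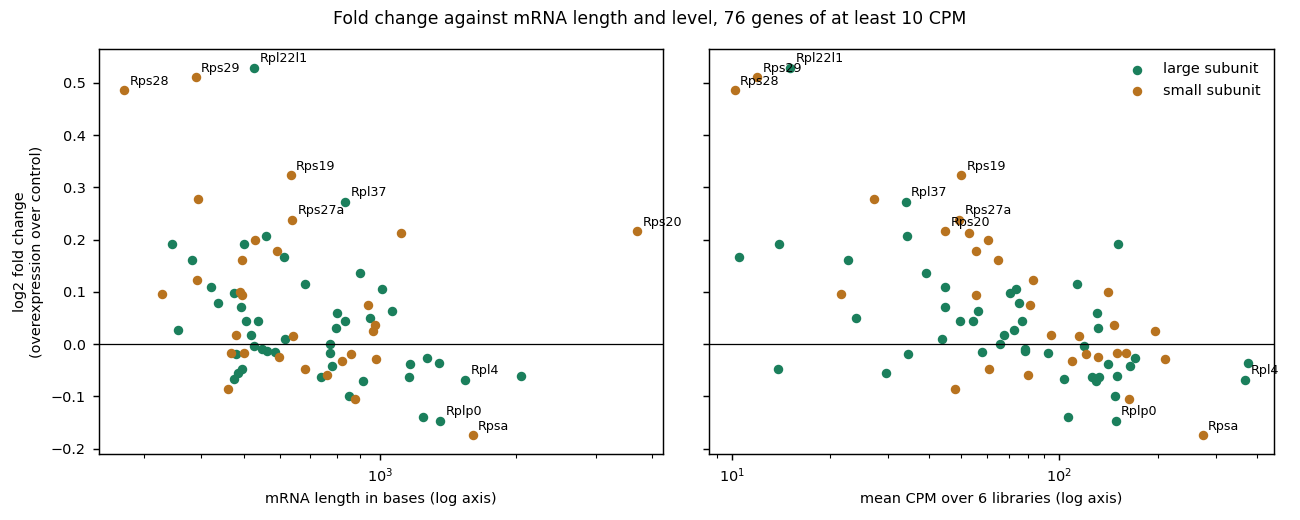
Log2 fold change, overexpression over control, against transcript length in bases (left) and mean CPM over the 6 libraries (right), both on log axes, for 76 genes of the large (green) and small (brown) subunit. Rps28, Rps29 and Rpl22l1, with group means between 8.51 and 17.8 CPM, lie highest; of the genes from 1000 bases, Rps16 and Rps20 lie highest, at 0.21 and 0.22.

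RefSeq's promoter table matched 64 of the 84 members and 16500 coding genes in all, each with 250 bases before and 50 after a start. A C at the annotated start followed by 4 pyrimidines was found in 14 members (21.9%), against 2.72% of coding genes. Where transcription begins at another base than the annotated one, this search misses a tract. The other members may thus still have one. The letters TCGCGAGA, searched on both strands, were in 17.2% of members and 1.64% of coding genes. CCGGAAG, the core bound by ETS factors such as GABPA, was in 40.6% against 13.4%, and AAGATGG, within the YY1 motif, in 14.1% against 7.25%.

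In all 17 searches were made, 8 of them forms of the tract, and not all differed. CTTTT was in 57.8% of members and 54.2% of coding genes, TTCTTT in 23.4% and 25.4%, GGGCGG in 60.9% and 51.0%, and TATAAA anywhere in 10.9% and 14.3%. TATAAA in the 50 bases before the start was in 1.56% and 3.69%, and a longer form of the YY1 motif in 3.12% and 1.49%. Wider windows for the tract raised its share in members and coding genes alike, to as much as 62.5% and 35.2%.

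Members with and without a promoter feature were set side by side. The 14 genes with the tract at the annotated start had a median log2 fold change of 0.065, with 12 above 1-fold. The 48 genes where it was not found there had a median of 0.021, with 26 above 1-fold. This gap depended on the form of the tract searched. A tract of 7 bases at the start gave 0.055 beside 0.027. One of 5 bases within 2 bases of the start gave 0.029 on both sides. Within 10 bases it was 0.016 (22 of 38 above 1-fold) beside 0.054 (16 of 24). Rps18, Rps21 and Rps6, printed above, all open with the tract, and their log2 fold changes were 0.20, 0.28 and −0.10. Rps21 was at 26.3, 31.4 and 31.7 against 22.4, 27.8 and 23.4 CPM, so its groups overlapped (SE 0.095, edgeR adjusted p 0.423). Rps6 also has TCGCGAGA in its promoter and so counts in both sets. Genes with TCGCGAGA had a median of −0.0094 (4 of 11 above 1-fold), Rps19 and Rps28 among them, beside 0.044 (34 of 51) for those without. None of these differences was tested.

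Genes that work with the ribosome did not pass the threshold either. Of all genes tested, 50.4% were above 1-fold, and 4.64% were higher and 4.6% lower at an unadjusted p under 0.05. Of 36 initiation factors 22 were below 1-fold (median −0.039). At an unadjusted edgeR p under 0.05, 0 of the 36 were higher and 4 lower. In either direction the share was 9.24% of all genes tested and 11.5% of those of at least 10 CPM. The groups lay wholly apart for 0 higher and 10 lower, against 7.07% and 8.07% of all genes tested. Eif3d, a subunit of the scaffold factor eIF3, was at 32.1 ± 1.92 (SD, n = 3) against 36.9 ± 1.62 CPM (SD, n = 3), edgeR adjusted p 0.412. Of 32 ribosome assembly factors 21 were below 1-fold (median −0.053), with 0 higher and 3 lower at an unadjusted edgeR p under 0.05. The groups lay wholly apart for 0 higher and 9 lower of these 32. Whether either list differs from other genes was not tested.

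Of 12 elongation and termination factors 8 were below 1-fold (median −0.044). At an unadjusted edgeR p under 0.05, 0 were higher and 3 lower, against 4.64% and 4.6% of all genes tested. Eef2k, the kinase that inhibits elongation factor 2, was at 46.4 ± 1.76 (SD, n = 3) against 54.3 ± 1.40 CPM (SD, n = 3), edgeR adjusted p 0.251. Eef1a2, the elongation factor of mature neurons, was at 694 ± 34.2 (SD, n = 3) against 781 ± 17.4 CPM (SD, n = 3), edgeR adjusted p 0.361. For both genes every overexpression library lay below every control library. That held for 3 of the 12 factors, with 0 the other way, beside 8.07% lower and 7.07% higher of all genes tested. The difference of this list from other genes was not tested.

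Of 23 other mRNAs with a TOP tract, 18 were below and 5 above 1-fold, with a median of −0.031. At an unadjusted edgeR p under 0.05, 2 were higher and 2 lower, beside 4.64% and 4.6% of all genes tested. The groups lay wholly apart for 2 higher and 4 lower, beside 7.07% and 8.07%. The 23 summed to 6096, 6171 and 6093 CPM in overexpression and to 6428, 6414 and 6429 CPM in control. Eef1a1 alone was at 2149 ± 37.1 (SD, n = 3) against 2364 ± 8.70 CPM (SD, n = 3), edgeR adjusted p 0.412. The difference of these 23 from the members was not tested. The 20 genes of mTOR signalling split evenly, 10 above and 10 below. Rheb, which activates mTOR, was at 80.4 ± 2.68 (SD, n = 3) against 70.4 ± 1.43 CPM (SD, n = 3), edgeR adjusted p 0.340. Mtor was at 146 ± 7.09 (SD, n = 3) against 165 ± 3.48 CPM (SD, n = 3), edgeR adjusted p 0.372.

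RNA polymerase I genes were above 1-fold in 8 of 12 (median 0.028), and factors tied to ribosomal protein promoters in 8 of 9 (median 0.075). Gabpb1, the partner of GABPA, was at 22.6 ± 1.80 (SD, n = 3) against 19.1 ± 1.32 CPM (SD, n = 3), edgeR adjusted p 0.418. Myc, which activates genes of ribosome production, lay the other way, at 4.55 ± 0.136 (SD, n = 3) against 5.74 ± 0.624 CPM (SD, n = 3), edgeR adjusted p 0.480. Of the 78 mitochondrial ribosomal protein genes, a list added after the data were seen, 46 were above 1-fold (median 0.016). No gene of these lists passed an adjusted p of 0.05 in edgeR.

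The genes whose log2 CPM over the 6 libraries was most like the mean of the members, out of 10135 of at least 10 CPM, were Elavl1 (Pearson r 0.997), Tmsb4x (0.993), 4933434E20Rik (0.993), Uqcrq (0.991) and Mex3c (0.985). Elavl1 encodes an RNA-binding protein, Tmsb4x an actin-binding peptide and Uqcrq a subunit of respiratory complex III. Elavl1 was at 87.3, 98.2 and 98.7 CPM in overexpression and at 83.0, 89.3 and 88.4 CPM in control. Replicate 1 was lowest in each group, as for the members' mean, and r over 6 libraries is given as a description only.

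The libraries also differed in ways outside the ribosome. Choroid plexus markers were above 1-fold in 8 of 8 and summed to 46.9 to 736 CPM in overexpression, highest in replicate 1, and 23.7 to 48.5 CPM in control. Oligodendrocyte markers were below 1-fold in 10 of 10 and summed to 3058 to 3609 against 3826 to 4823 CPM.

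Meningeal fibroblast markers were above 1-fold in 8 of 8 and summed to 171 to 213 against 138 to 188 CPM. Neuron, astrocyte, microglia and endothelial markers were mixed in direction, with medians between −0.053 and 0.021. Gfap, of the astrocyte list, was at 338, 328 and 401 against 465, 525 and 533 CPM. Its log2 fold change was −0.51 ± 0.080 (SE), with an adjusted p of 0.0862 in edgeR and 1e-06 in DESeq2. Of the 8 astrocyte markers 3 were above and 5 below 1-fold. The part of all these markers in the ribosomal protein results was not tested. In bulk tissue, fewer cells of a type and less RNA per cell cannot be told apart.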

How the data were processed

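Strand-specific poly(A) libraries of ventral hippocampus from 6 mice were analysed. The authors deposited raw integer counts for each Ensembl gene; all 6 columns were used (0 unused). Per the submitters' processing notes, the tools were featureCounts 2.0.3, STAR 2.7.10 and Trimmomatic 0.36 and the builds GRCm39 and mm10, with no role stated for any. No source used here states the strand setting of the counting. Symbols were found for 51948 of 56941 identifiers; rows with none took 0.264 to 0.348% of a library's counts.

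edgeR 4.0.16 in R 4.3.3 (TMM factors, default filter, robust quasi-likelihood fit, group as the only term) tested 19354 genes, with Benjamini-Hochberg adjustment over all and a threshold of 0.05. Standard errors of log2 fold changes were derived from the F statistics. CPM used TMM-scaled library sizes; log2 CPM had 0.5 added. Each library is a different mouse, according to the design text.

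The members and lists were chosen with earlier results of these data known. Named members were the 4 of each subunit with the smallest p, the 2 highest and 2 lowest log2 fold changes per subunit (at least 10 CPM), the highest and lowest level per length, the P stalk, Rpsa, qPCR reference genes and detected paralogs; for other lists, values of genes with the smallest p. Genes named beyond this were chosen after their values were seen. Same-numbered libraries did not deviate together beyond r = 0.1 (0.017, 0.017 and 0.023), so the numbers were not taken as pairs.

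Alternatives were other scaling factors, other filters, DESeq2 1.42.0, limma-voom (3.58.1), the replicate block, correction for GC content and length (mgcv 1.9.3, GENCODE M21 transcripts, 97.6% of tested genes) and leaving out each library. The transcript rule behind that correction was changed after results had been seen; all 4 rules fitted are given.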

Additional observations from a re-analysis of the deposited data

How the results depend on the processing

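The number of genes past the threshold, 9 in the reported fit, was 304 with no filter on low counts, 5 with 1 CPM in 3 libraries, 107 with DESeq2, 19 at an adjusted p of 0.1 and 2 to 63 without single libraries (63 when overexpression replicate 1 was left out, 39 for control replicate 1, 5 for overexpression replicate 2, 3 for control replicate 3 and 2 for control replicate 2). The number of members past it, 0 as reported, was 6 with no filter (Rpl22l1, Rpl37, Rps19, Rps21, Rps28 and Rps29), 2 with DESeq2 and 0 to 2 without single libraries; the 2, Rpl22l1 and Rps19, passed only without overexpression replicate 1. With the replicate number as a block 26 genes and 0 members passed. Block plus GC and length correction gave 19 genes and 0 members with the shortest transcript, the rule kept. The 3 other transcript rules gave 33 (APPRIS), 39 (RefSeq-linked) and 25 (best supported) genes and 1 member each, Rps19. The kept rule was itself chosen with these results in view, so that Rps19 is not called under this setting rests on that choice. Each library correlated best with its own number in the other group, but only at r of 0.017 to 0.023. The values were centred within each group, so some positive r was bound to arise. They are not read as pairs, and the design gives none. The cause of these shifts was not tested.

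The median log2 fold change ranged from 0.0078 to 0.038 (large) and 0.035 to 0.069 (small) without single libraries, and the log2 difference in the subunit ratio from −0.031 to −0.012; by mean log2 CPM it was −0.055. For 23 named members, 504 alternative values held 464 that kept direction and call, 12 that passed the threshold and 28, in 7 genes, that turned sign. Without single libraries these genes ranged from −0.098 to 0.023 (Rpl13a), −0.0086 to 0.043 (Rpl32), −0.17 to 0.70 (Rpl36al), −0.20 to 0.091 (Rpl3l), −0.28 to 0.040 (Rps10), −0.053 to 0.014 (Rps24) and −0.090 to 0.19 (Rps27rt). Under GC and length correction Rpl32 was at −0.014 without and with block; with the other rules it was −0.026 and −0.027 (APPRIS), −0.027 and −0.027 (RefSeq-linked), and −0.021 and −0.021 (best supported). Rps27rt was at −0.058 and −0.047 with the kept rule, −0.079 and −0.068 (APPRIS), −0.079 and −0.067 (RefSeq-linked), and −0.069 and −0.058 (best supported). All 7 were within 1 SE of 0 as reported. With 3 mice a group, a lone exact permutation test could not fall below p = 0.1.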
